A study of Mus musculus with 10 samples.

Results

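The genes described here are 37 genes of mitosis and the G2/M transition, the step from the end of DNA replication into cell division. They were taken by name, as a given list of symbols, from a table of 46316 genes counted in 10 libraries of mouse splenic B cells. The list was drawn up with earlier results of these data known. All 37 were found, and all 37 were among the 17718 genes that passed the filter on low counts. No member had fewer than 184 reads in any library. The libraries are bulk polyA RNA from sorted cells of C57BL/6 mice and form 3 groups. pBIC lymphoma cells (n = 3) came from mice with 2 floxed tumour-suppressor and differentiation genes, p53F/F and Blimp1F/F, an activated kinase allele behind a floxed stop, IKK2castopF/stopF, and the Cre allele Cg1Cre/+. pBIC10 lymphoma cells (n = 3) came from mice with the same 4 alleles and, in addition, IL-10F/F, so that the interleukin 10 gene is floxed too. The YC controls (n = 4) carried Cg1Cre/+ with the reporter YFPstopF/+ and none of the lymphoma alleles, and had been immunised with sheep red blood cells 2 times, 20 days apart, with collection 10 days after the later dose. Cg1Cre places Cre recombinase under the Ighg1 constant-region locus, which is switched on in activated B cells, chiefly those of germinal centres, so the alleles are recombined in those B cells and their progeny and not in the whole mouse. Lymphoma cells were sorted as B220+GFP+ from moribund mice. The series text calls the YC cells B220+YFP+ germinal centre B cells, while their sample labels repeat the wording of the lymphoma samples; the series text was followed. Ages are not given in the labels. Of the pBIC10 mice 2 were female and 1 (replicate 3) male, all 3 pBIC mice were female, and of the YC mice 3 were female and 1 (replicate 3) male. The study compares IL-10-deficient with IL-10-competent lymphoma, and each lymphoma with normal germinal centre B cells.

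Mitosis is driven by cyclin-dependent kinase 1 bound to cyclins A and B, with the polo-like and Aurora kinases acting beside it. The spindle assembly checkpoint holds cells in metaphase until every kinetochore is attached, and the anaphase-promoting complex then marks cyclin B and securin for destruction so that chromatids part and the cell divides. Most of the genes are transcribed in G2 and early mitosis and silent in resting cells, through promoter elements bound by the MuvB complex, which works with B-MYB and FOXM1 in cycling cells and with repressors in resting ones. Germinal centre B cells are among the fastest dividing cells of the body, and diffuse large B cell lymphoma, the human disease the pBIC mice model, also proliferates fast. In bulk RNA, fewer cells in G2 and mitosis and less of these RNAs in each such cell cannot be told apart.

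The lymphoma libraries held 17100995 to 19134178 counted reads and the YC libraries, which were shallower, 12590117 to 14330172. Levels are given as CPM, read counts scaled to a common library size with TMM factors, and log2 CPM correlated at 0.96 to 0.984 between libraries of a group and at 0.813 to 0.902 between groups. The pBIC and YC libraries are labelled as re-analysed from an earlier series and the pBIC10 libraries are not, so the series of origin and the genotype cannot be told apart in any comparison with pBIC10. Within each lymphoma group the libraries shared a dominant heavy-chain variable segment, Ighv7-3 at 67.4 to 70.5% of heavy variable counts in pBIC10 and Ighv8-11 at 51.6 to 59.1% in pBIC. The corresponding shares were at most 1.73% and 1.04% in YC. Whether the 3 libraries of a lymphoma group are independent tumours was not tested, and p-values measure only the spread between these libraries. Il10, targeted in pBIC10, stood at 1.99 to 4.77 CPM there, below the 6.84 to 19.4 CPM of pBIC, and Trp53 stood at 36.6 to 49.7 and 18.3 to 53.3 CPM in the lymphomas against 176 to 198 CPM in YC. Of 9 B cell markers, 8 were called lower in pBIC and 7 in pBIC10 than in YC, and 4 were higher in pBIC10 than in pBIC. Ms4a1 and Cd79a were present in every library (Cd79a at 134 to 791 CPM), whereas Fcer2a stood at 0.965 to 1.24 CPM in pBIC and 5.74 to 9.56 in pBIC10 against 404 to 684 in YC. Of 12 germinal centre markers 12 were lower in pBIC and 11 in pBIC10 than in YC, with Bcl6 at most 9.49 CPM in the lymphomas against 168 to 321 CPM in YC. The exception was Cxcr4, at 285 to 567 CPM in pBIC10 against 248 to 390 in YC, and between the lymphomas 4 of the 12 were higher and 4 lower. The summed level of 12 T cell markers was 41.9 to 65.8 CPM in pBIC10, 55.3 to 93.0 in pBIC and 350.1 to 609 in YC. In pBIC10 against pBIC 10 of the 12 were lower (5 by limma-voom) and 1, Lck, was higher. Lck at 36.5 to 57.7 CPM in pBIC10 and Cd8b1 at 15.3 to 44.9 CPM in pBIC were the highest of the list there. Cd3e and Cd3d stayed under 2 CPM in all lymphoma libraries, but other T cell markers were higher in pBIC. There Cd3g stood at 3.11 to 9.64 CPM, Cd4 at 1.41 to 8.41, Cd8a at 1.77 to 6.32 and Trac at 3.11 to 6.22. The 10 erythroid markers summed to 649.6 to 1642 CPM in pBIC10, 35.3 to 688 in pBIC and 184.7 to 556 in YC. None of the 10 was called by edgeR in pBIC10 against pBIC (5 higher at an unadjusted p under 0.05 and by limma-voom, 1 by DESeq2), and 3 were higher in pBIC10 against YC, against 24.8% of all genes. The part of other cell types in the results below was not tested.

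The promoters of the genes were read first, because the MuvB-bound element that marks this class of gene can be seen in the letters. RefSeq promoter windows (GRCm38.p6, 250 bases before to 50 after the transcription start) were matched by symbol for 32 of the 37 members; Incenp, Ccna2, Kif20a, Tpx2 and Aurkb had no entry. The cell cycle genes homology region (CHR), searched as TTTGAA and TTCGAA on both strands, was present in 25 of 32 (78.1%) against 19.2% of all 32851 promoters. CCAAT, the box bound by NF-Y, searched on both strands and so also as ATTGG, was present in 25 of 32 (78.1%) against 37.4%, and both motifs together in 22 of 32 (68.8%) against 7.52%. The CHR was first described in promoters of this kind and CCAAT is a general promoter box, and the shares are a description with no test. The CHR sites of the 6 members with full statistics, both motifs and the smallest adjusted p in pBIC10 against pBIC are shown with 10 bases on each side, the CHR in capitals, and below them that of Top2a, a member with no called difference that was added for contrast after its values were seen.
Plk1, chr7:122159455-122159480, plus strand: cagcgccgcgTTTGAAttcggggagg
Aurka, chr2:172370523-172370548, minus strand: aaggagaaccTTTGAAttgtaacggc
Ube2c, chr2:164769890-164769915, plus strand: agggttgcaaTTCAAAcgcgggcggc
Hmmr, chr11:40733414-40733439, minus strand: ttgaggtaaaTTTGAAttcaggcgag
Prc1, chr7:80294436-80294461, plus strand: tctggctcggTTTGAAttccgcgggg
Cenpa, chr5:30666892-30666917, plus strand: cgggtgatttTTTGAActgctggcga
Top2a, chr11:99024197-99024222, minus strand: tagataaaggTTCAAAtgaaactagg
The motif reads TTTGAA in Plk1, Aurka, Hmmr, Prc1 and Cenpa, and TTCAAA, its letters on the other strand, in Ube2c and Top2a. Counted from the start base as 0, the CHR begins at 30 in Plk1, 32 in Aurka, 8 in Hmmr and 16 in Cenpa, and at -29 in Ube2c, -5 in Prc1 and -23 in Top2a. Plk1 and Prc1 have 1 CCAAT box each in the promoter window and Cenpa has 2. The stretches before the start of 4 promoters with 2 or more are shown to let the arrangement be compared, with CHR and CCAAT (or ATTGG) in capitals.
Aurka, chr2:172370571-172370680, minus strand: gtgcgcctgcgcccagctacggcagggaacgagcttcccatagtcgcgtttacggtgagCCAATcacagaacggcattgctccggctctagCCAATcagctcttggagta
Ube2c, chr2:164769729-164769897, plus strand: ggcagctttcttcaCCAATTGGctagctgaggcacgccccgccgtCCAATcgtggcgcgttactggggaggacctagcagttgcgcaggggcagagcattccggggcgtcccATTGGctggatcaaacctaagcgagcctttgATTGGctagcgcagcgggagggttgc
Hmmr, chr11:40733438-40733637, minus strand: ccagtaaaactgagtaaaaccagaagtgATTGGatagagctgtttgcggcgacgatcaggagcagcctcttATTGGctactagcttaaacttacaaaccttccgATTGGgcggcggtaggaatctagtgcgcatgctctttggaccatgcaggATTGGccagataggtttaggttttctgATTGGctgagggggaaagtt
Top2a, chr11:99024190-99024389, minus strand: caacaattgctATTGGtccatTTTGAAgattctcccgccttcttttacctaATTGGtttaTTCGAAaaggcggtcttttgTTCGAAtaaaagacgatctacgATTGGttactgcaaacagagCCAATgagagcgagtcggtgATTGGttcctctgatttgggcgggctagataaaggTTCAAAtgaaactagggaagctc
The Aurka stretch holds 2 CCAAT boxes, the Hmmr stretch 5, all read as ATTGG, and the Ube2c stretch 5, of which a pair overlaps in CCAATTGG. Top2a holds 5 CCAAT boxes and 4 CHR matches in 200 bases. Of the 14 matched members called lower in pBIC10 than in pBIC 12 had both motifs (85.7%), and of the 18 not called 10 had both (55.6%); with members of these numbers and no test this is a count only. A match is not a measured binding site.

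In pBIC10 against pBIC, 18 of the 37 members fell and none rose. The kinases Plk1 and Aurka, the ubiquitin-conjugating enzyme Ube2c and the spindle protein Hmmr fell most, by 1.76 to 2.11 on the log2 scale, which is 3.38 to 4.31 times lower. Members of 7 of the 8 role groups described below were among the 18, and 19 members did not pass the test, among them Top2a, Ccna2, Kif11 and Mki67. Called means an adjusted p under 0.05 in edgeR's quasi-likelihood test with Benjamini-Hochberg adjustment over all 17718 genes, in 1 fit of the 10 libraries. Of all genes tested, 30.7% were called in this comparison, 15.1% as lower, against 48.6% of the members. Since the members were chosen with earlier results known, such shares are a description and not a test of the list. All pBIC10 libraries lay below all pBIC libraries for 19 members, against 19.7% of all genes. The median log2 fold change of the 37 members was -0.56, and that over all genes was -0.0071. A list of 14 housekeeping genes in the same fit had 5 lower (35.7%) and 1 higher, with a median of -0.28. With no member called higher by edgeR, none was higher at an unadjusted p under 0.05, in DESeq2 or in limma-voom either (0 in each). The count of 18 was 8 without pBIC10 replicate 2 and 11 without pBIC10 replicate 1. The share of all genes called lower went from 15.1% to 9.76% and 10.6% in these fits. The count of members was 20 without pBIC replicate 3, where 14.3% of all genes were lower.

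Both lymphomas were also set against the normal germinal centre cells. In pBIC10 against YC 25 of 37 members were lower (67.6%, against 26.9% of all genes called lower and 51.7% called in all) and none higher (0 also at an unadjusted p under 0.05, in DESeq2 and in limma-voom), with a median of -0.63. In pBIC against YC 7 were lower (18.9%, against 27.7% of all genes called lower and 54.1% called in all) and 1, Bub1b, was higher (against 26.4% of all genes; the pBIC libraries lay above all YC libraries for 1 member, against 26.3%), with a median of -0.10. DESeq2 and limma-voom each called 10 members lower there, and edgeR with DESeq2 size factors called 11. The shares of all genes called lower were 24.9%, 28.7% and 28.9% in that order. Without pBIC10 replicate 2 the 25 became 16, and the share of all genes called lower went from 26.9% to 22.4%. The 3 comparisons share libraries in pairs, so their values are given side by side and are not independent.

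**Figure D1:**
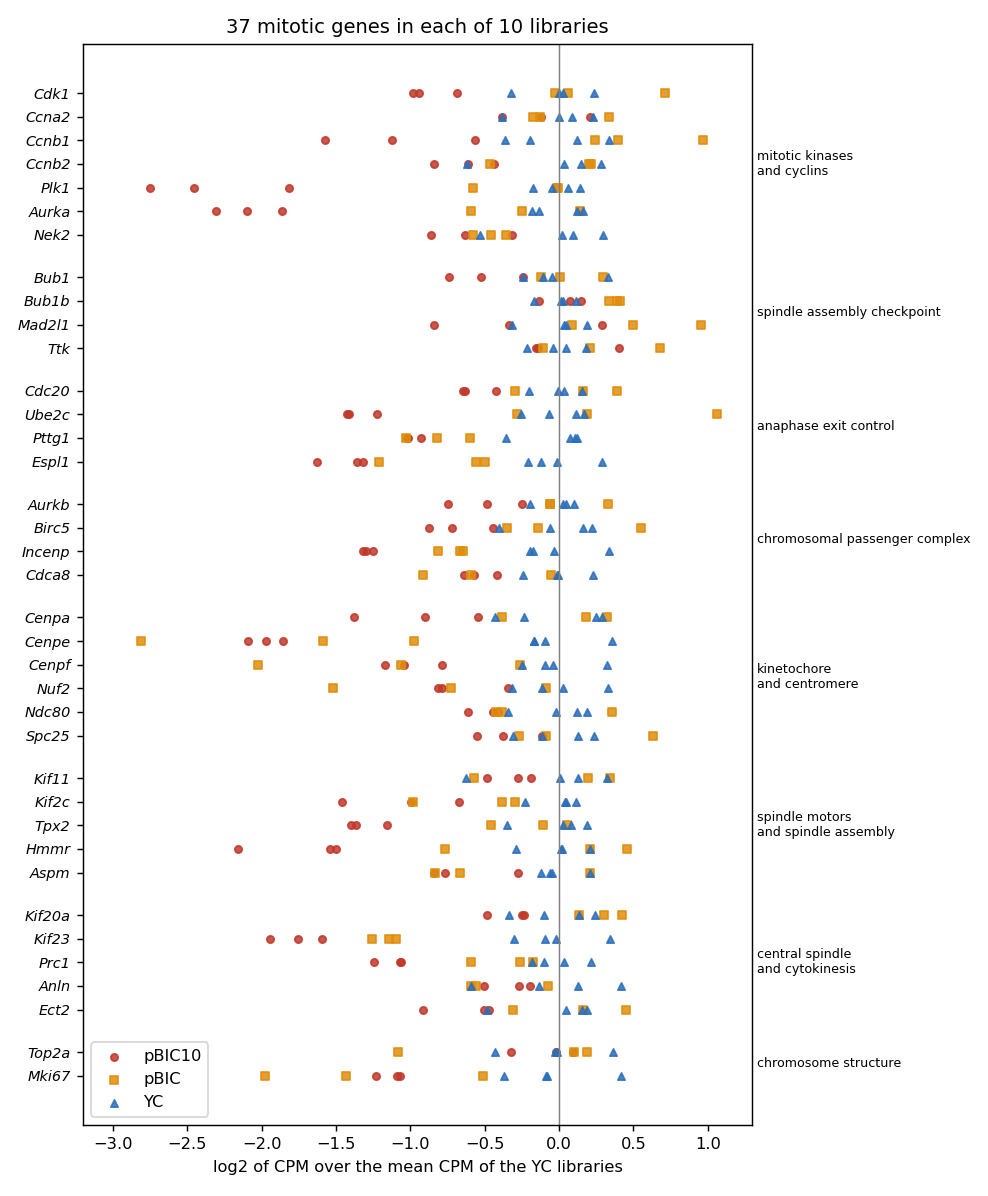
Level of each of the 37 genes in each of the 10 libraries, as the log2 of CPM over the mean CPM of the 4 YC libraries (x axis), with genes grouped by role (y axis). Points are single libraries (pBIC10 circles, pBIC squares, YC triangles), and the pBIC10 points of Plk1, Aurka, Ube2c, Hmmr and Tpx2 lie left of every pBIC and YC point.

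The mitotic kinases and cyclins fell in 4 of 7 members (57.1%) in pBIC10 against pBIC and 6 of 7 (85.7%) against YC. For this and the role groups below, the shares of all genes called lower in these comparisons were 15.1% and 26.9%. Plk1, the polo-like kinase that acts from centrosome maturation to cytokinesis, stood at 16.8, 13.6 and 26.1 CPM in pBIC10, 91.3, 91.5 and 61.6 CPM in pBIC and 102, 81.4, 89.1 and 95.9 CPM in YC. Every pBIC10 library was below every other library. The log2 fold change of Plk1 was -2.11 ± 0.25 (SE, adjusted p = 4.35e-05) against pBIC and -2.28 ± 0.24 (SE, adjusted p = 8.64e-06) against YC, and pBIC against YC gave -0.18 (adjusted p = 0.518). Aurka, the Aurora kinase of spindle poles that activates Plk1, stood at 14.9, 11 and 12.7 CPM in pBIC10, 45.6, 59.5 and 35.9 CPM in pBIC and 58.9, 47.7, 60.4 and 49.3 CPM in YC. Its pBIC10 libraries were again lower than all others and close to one another, with -1.87 ± 0.22 (SE, adjusted p = 4.56e-05) against pBIC, -2.08 ± 0.21 (SE, adjusted p = 7.45e-06) against YC and -0.20 (adjusted p = 0.402) for pBIC against YC. Ccnb1, cyclin B1, the partner of Cdk1 at entry into mitosis, stood at 14.7, 10.8 and 21.7 CPM in pBIC10, 42.2, 62.7 and 38 CPM in pBIC and 28, 25, 40.5 and 34.9 CPM in YC. The pBIC10 libraries lay below the rest and the pBIC libraries overlapped YC at its upper end. The values were -1.59 ± 0.29 (SE, adjusted p = 0.00114) against pBIC and -1.03 ± 0.27 (SE, adjusted p = 0.00665) against YC, and 0.57 (adjusted p = 0.0812) for pBIC against YC. Ccnb1 came under the threshold for pBIC against YC with no low-count filter (0.0291), sex as covariate (0.0173), females alone (0.032) or the length trend removed (0.0352), with an adjusted p of 0.0173 to 0.265 over the 22 alternatives. A separate row for Ccnb1-ps, a pseudogene copy, stood at 7.67 to 16.8 CPM in pBIC10, 26.9 to 36.9 in pBIC and 15.2 to 21.3 in YC, and how reads were divided between both rows is not known here.

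Cdk1, the kinase itself, fell as well, by less. It stood at 38.9, 37.9 and 46.6 CPM in pBIC10, 73.5, 123 and 77.9 CPM in pBIC and 76.4, 59.9, 88.1 and 74.9 CPM in YC, with no overlap of pBIC10 with either group. Its fold change was -1.15 ± 0.22 (SE, adjusted p = 0.00158) against pBIC and -0.86 ± 0.21 (SE, adjusted p = 0.00351) against YC. Ccna2, cyclin A2, which acts from S phase into early mitosis, did not pass any of the 3 tests at 149.9, 125 and 188 CPM in pBIC10, 149, 206 and 144 CPM in pBIC and 191, 125, 173 and 162 CPM in YC. Its libraries overlapped between all groups, with -0.11 (adjusted p = 0.739) against pBIC. Ccnb2, the second B-type cyclin, gave -0.64 (adjusted p = 0.0646) against pBIC and was lower than YC at -0.62 (adjusted p = 0.0382), although the libraries overlapped. Ccnb2 came under the threshold against pBIC on omission of pBIC replicate 1 or of YC replicate 2 (adjusted p = 0.0196 and 0.041 in that order, with a range of 0.0196 to 0.206 over the 22 alternatives). Ccnb2 did so also with no low-count filter (0.031). Nek2, a kinase that splits the centrosomes, was likewise not called against pBIC at -0.12 (adjusted p = 0.708) and lower than YC at -0.58 (adjusted p = 0.029) with overlapping libraries. The Ccnb2 call for pBIC10 against YC did not survive omission of pBIC10 replicate 1 or 2 or of YC replicate 1, 3 or 4 (adjusted p = 0.0878, 0.14, 0.0919, 0.0828 and 0.0694 in that order, with a range of 0.00836 to 0.14 over the 22 alternatives). Ccnb2 was also lost with limma-voom (0.053) or females alone (0.0938). The Nek2 call for pBIC10 against YC did not survive omission of pBIC10 replicate 1 or 2 or of YC replicate 1, 3 or 4 (adjusted p = 0.0858, 0.132, 0.0754, 0.0623 and 0.0549 in that order, with a range of 0.00674 to 0.132 over the 22 alternatives). Nek2 was also lost with the length trend removed (0.0535).

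**Figure D2:**
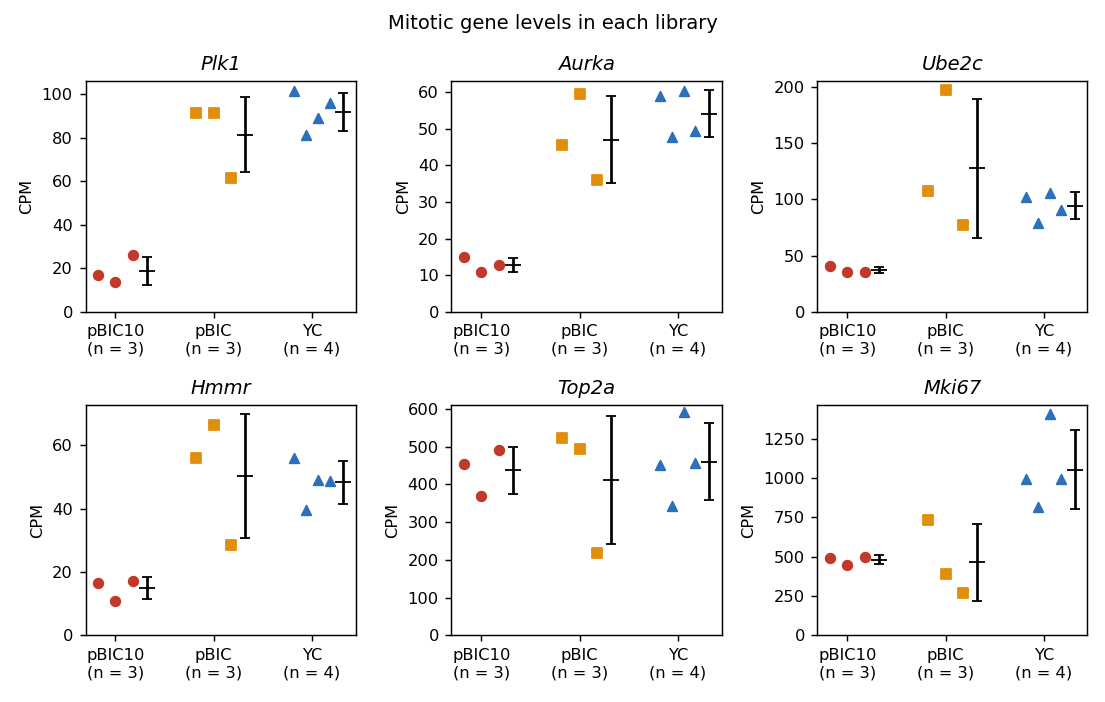
CPM (y axis, from 0) of 6 members in each library of pBIC10 (n = 3), pBIC (n = 3) and YC (n = 4), with the mean and SD of each group as a black bar. Plk1, Aurka, Ube2c and Hmmr are lowest in the 3 pBIC10 libraries, Top2a overlaps between all groups, and Mki67 is higher in YC than in both lymphomas.

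Of the 4 members of the spindle assembly checkpoint 1, Bub1, was called lower by edgeR in pBIC10 against pBIC, and the same 1 against YC. That share of 25% stands beside 15.1% of all genes against pBIC and 26.9% against YC, and is close to the latter. Bub1, the kinase that recruits checkpoint proteins to kinetochores, stood at 43.3, 37.2 and 52.6 CPM in pBIC10, 62.4, 76.5 and 57.3 CPM in pBIC and 57.8, 52.7, 78.2 and 60.2 CPM in YC. The pBIC10 libraries lay below the rest by a small margin, with -0.56 ± 0.20 (SE, adjusted p = 0.0489) against pBIC and -0.49 ± 0.19 (SE, adjusted p = 0.0443) against YC. Both are close to the threshold. The Bub1 call against pBIC did not survive omission of pBIC10 replicate 1 or 2 or of pBIC replicate 1 or 2 or of YC replicate 1, 2 or 4 (adjusted p = 0.131, 0.193, 0.0596, 0.128, 0.0646, 0.0601 and 0.0711 in that order, with a range of 0.0115 to 0.193 over the 22 alternatives). Bub1 was also lost with DESeq2 size factors (0.0504), library size alone (0.0659), no low-count filter (0.0619), DESeq2 (0.0555) or the 2 groups alone (0.0836). The Bub1 call for pBIC10 against YC did not survive omission of pBIC10 replicate 1 or 2 or of YC replicate 3 or 4 (adjusted p = 0.118, 0.186, 0.131 and 0.067 in that order, with a range of 0.018 to 0.186 over the 22 alternatives). Bub1 was also lost with library size alone (0.0566), no low-count filter (0.0948), females alone (0.081) or the length trend removed (0.0865). Bub1b, which encodes BUBR1, the subunit that inhibits the anaphase-promoting complex, was the single member called higher in any comparison. It stood at 107, 123 and 129.9 CPM in pBIC10, 148, 154 and 156 CPM in pBIC and 119, 104, 127 and 118 CPM in YC, so that the pBIC libraries lay above all others. The value was 0.38 ± 0.14 (SE, adjusted p = 0.0332) in pBIC against YC and -0.35 (adjusted p = 0.0958) in pBIC10 against pBIC. Bub1b came under the threshold against pBIC with the length trend removed (0.0428), with an adjusted p of 0.0428 to 0.321 over the 22 alternatives. The Bub1b call for pBIC against YC did not survive omission of pBIC10 replicate 2 or of pBIC replicate 3 or of YC replicate 1, 2 or 4 (adjusted p = 0.0501, 0.0677, 0.0695, 0.117 and 0.0802 in that order, with a range of 0.0045 to 0.117 over the 22 alternatives). Bub1b was also lost with DESeq2 size factors (0.0567), no low-count filter (0.0636), DESeq2 (0.0543) or the 2 groups alone (0.0567). Mad2l1, the MAD2 protein that captures Cdc20, stood at 60.8, 42.9 and 93.8 CPM in pBIC10, 81.4, 149 and 108 CPM in pBIC and 87.4, 61.6, 78.4 and 79.2 CPM in YC. At -0.78 (adjusted p = 0.0504) against pBIC it was the member closest to the threshold outside it, next to Bub1 inside it. Mad2l1 came under the threshold against pBIC on omission of pBIC10 replicate 3 or of pBIC replicate 1 (adjusted p = 0.00872 and 0.0236 in that order, with a range of 0.00872 to 0.193 over the 22 alternatives). Mad2l1 did so also with no low-count filter (0.013), a filter of 1 CPM in 3 libraries (0.0487), DESeq2 (0.045), limma-voom (0.0428), sex as covariate (0.023), antigen receptor genes omitted (0.0454), females alone (0.0132) or the length trend removed (0.0317). Ttk, the MPS1 kinase at the top of the checkpoint, was not called in any comparison and gave -0.24 (adjusted p = 0.472) against pBIC.

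Of the 4 anaphase control genes, 3 were lower in pBIC10 than in pBIC and all 4 were lower than in YC. Ube2c, the ubiquitin-conjugating enzyme that works with the anaphase-promoting complex, stood at 40.3, 35.1 and 35.4 CPM in pBIC10, 108, 197 and 77.5 CPM in pBIC and 102, 79, 106 and 90.1 CPM in YC. The 3 pBIC10 libraries were close to each other while pBIC spread widely, and no pBIC10 library reached any other. The fold change was -1.79 ± 0.28 (SE, adjusted p = 4.33e-04) against pBIC and -1.35 ± 0.26 (SE, adjusted p = 9.22e-04) against YC. Cdc20, which activates the anaphase-promoting complex in mitosis, stood at 67.8, 57.9 and 58.6 CPM in pBIC10, 74, 119 and 101 CPM in pBIC and 101, 78.8, 90.2 and 93.1 CPM in YC. It was lower in every pBIC10 library than in any other, with -0.67 ± 0.19 (SE, adjusted p = 0.0157) against pBIC and -0.56 ± 0.18 (SE, adjusted p = 0.0173) against YC. The Cdc20 call against pBIC did not survive omission of pBIC10 replicate 2 or 3 (adjusted p = 0.0675 and 0.0508 in that order, with a range of 0.00244 to 0.0675 over the 22 alternatives). Cdc20 was also lost with females alone (0.0661). The Cdc20 call for pBIC10 against YC did not survive omission of pBIC10 replicate 2 or 3 (adjusted p = 0.0695 and 0.0595 in that order, with a range of 0.00239 to 0.0948 over the 22 alternatives). Cdc20 was also lost with females alone (0.0948). Espl1, separase, the protease that cleaves cohesin, stood at 49.1, 40.7 and 50.4 CPM in pBIC10, 89.1, 85.6 and 54.5 CPM in pBIC and 109, 116, 154 and 125 CPM in YC. Its levels stepped down from YC to pBIC to pBIC10 without overlap, at -0.72 ± 0.20 (SE, adjusted p = 0.00779) for pBIC against YC, -0.71 ± 0.21 (SE, adjusted p = 0.0209) for pBIC10 against pBIC and -1.43 (adjusted p = 8.75e-05) for pBIC10 against YC. The Espl1 call against pBIC did not survive omission of pBIC10 replicate 1 or 2 or of pBIC replicate 1 or 2 (adjusted p = 0.053, 0.0965, 0.063 and 0.0531 in that order, with a range of 0.00377 to 0.0965 over the 22 alternatives). Espl1 was also lost with the 2 groups alone (0.0568). Pttg1, securin, the inhibitor of separase, was low in both lymphomas at 11 to 11.7 CPM in pBIC10 and 10.9 to 14.7 in pBIC against 17.4 to 24.3 in YC. It fell in pBIC against YC by 0.80 on the log2 scale (adjusted p = 0.00507) and in pBIC10 against YC by 0.99 (adjusted p = 0.00142), and the 2 lymphomas gave -0.19 (adjusted p = 0.553).

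The chromosomal passenger complex, which corrects faulty kinetochore attachments and later acts at the midzone, fell in 3 of its 4 members in pBIC10 against pBIC and in all 4 against YC. Incenp, its scaffold, stood at 99.4, 100.5 and 104 CPM in pBIC10, 156, 141 and 158 CPM in pBIC and 216, 219, 312 and 242 CPM in YC. The 3 groups did not overlap. The steps were -0.71 ± 0.16 (SE, adjusted p = 0.0024) from YC to pBIC and -0.58 ± 0.17 (SE, adjusted p = 0.0187) from pBIC to pBIC10, and -1.29 (adjusted p = 3.62e-05) in pBIC10 against YC. The Incenp call against pBIC did not survive omission of pBIC10 replicate 1 or 2 (adjusted p = 0.0676 and 0.0673 in that order, with a range of 0.00771 to 0.0676 over the 22 alternatives). Aurkb, the kinase of the complex, stood at 69.2, 57.8 and 81.7 CPM in pBIC10, 92.9, 122 and 92.9 CPM in pBIC and 98.5, 84.8, 104 and 100.2 CPM in YC. The pBIC10 libraries were below all others, narrowly so against YC replicate 2, with -0.56 ± 0.18 (SE, adjusted p = 0.0308) against pBIC and -0.48 ± 0.17 (SE, adjusted p = 0.030) against YC. The Aurkb call against pBIC did not survive omission of pBIC10 replicate 1 or 2 or of pBIC replicate 2 (adjusted p = 0.0912, 0.149 and 0.0831 in that order, with a range of 0.0214 to 0.149 over the 22 alternatives). Aurkb was also lost with the 2 groups alone (0.0796). The Aurkb call for pBIC10 against YC did not survive omission of pBIC10 replicate 1 or 2 or of YC replicate 3 or 4 (adjusted p = 0.0844, 0.153, 0.0662 and 0.0627 in that order, with a range of 0.0112 to 0.153 over the 22 alternatives). Aurkb was also lost with no low-count filter (0.0838). Birc5, survivin, which brings the complex to centromeres, stood at 43.2, 38.9 and 52.3 CPM in pBIC10, 55.9, 104 and 64.7 CPM in pBIC and 83, 53.9, 79.7 and 68.2 CPM in YC. Its pBIC10 range ended just below the lowest library of each other group, with -0.74 ± 0.24 (SE, adjusted p = 0.0338) against pBIC and -0.67 ± 0.23 (SE, adjusted p = 0.0265) against YC. The Birc5 call against pBIC did not survive omission of pBIC10 replicate 1 or 2 or of pBIC replicate 2 (adjusted p = 0.0976, 0.127 and 0.136 in that order, with a range of 0.00853 to 0.136 over the 22 alternatives). Birc5 was also lost with the 2 groups alone (0.0663). The Birc5 call for pBIC10 against YC did not survive omission of pBIC10 replicate 1 or 2 or of YC replicate 1 or 3 (adjusted p = 0.0779, 0.104, 0.0614 and 0.0618 in that order, with a range of 0.00595 to 0.104 over the 22 alternatives). Birc5 was also lost with females alone (0.0614). Cdca8, borealin, gave -0.07 (adjusted p = 0.846) against pBIC, where it was not called, and -0.54 (adjusted p = 0.0366) against YC. The Cdca8 call for pBIC10 against YC did not survive omission of pBIC10 replicate 1, 2 or 3 or of YC replicate 1, 3 or 4 (adjusted p = 0.0992, 0.119, 0.0533, 0.0529, 0.0931 and 0.0616 in that order, with a range of 0.00443 to 0.12 over the 22 alternatives). Cdca8 was also lost with females alone (0.12) or the length trend removed (0.0726).

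Among the 6 kinetochore and centromere members 1, Cenpa, fell in pBIC10 against pBIC, and 3 fell against YC. The share against pBIC, 16.7%, was close to the 15.1% of all genes, and that against YC was 50%, against 26.9%. Cenpa, the histone H3 variant that marks centromeres, stood at 40.4, 29.1 and 51.8 CPM in pBIC10, 58.1, 86 and 94.7 CPM in pBIC and 64.1, 56, 92.5 and 89.9 CPM in YC. Every pBIC10 library was below every other library, with -0.98 ± 0.26 (SE, adjusted p = 0.0136) against pBIC and -0.90 ± 0.25 (SE, adjusted p = 0.00873) against YC, and pBIC against YC gave 0.07 (adjusted p = 0.818). The Cenpa call against pBIC did not survive omission of pBIC10 replicate 2 (adjusted p = 0.0684, with a range of 5.5e-04 to 0.0684 over the 22 alternatives). Cenpe, a kinesin that carries chromosomes to the spindle equator, was low in both lymphomas at 41.6, 35.3 and 38.3 CPM in pBIC10, 76.3, 49.9 and 21.4 CPM in pBIC and 134, 134, 193 and 141 CPM in YC. Its fold change was -1.61 ± 0.33 (SE, adjusted p = 0.00158) for pBIC against YC and -1.97 ± 0.34 (SE, adjusted p = 4.54e-04) for pBIC10 against YC, and within pBIC its level ranged over 3.56 times. Cenpe came under the threshold against pBIC on omission of pBIC replicate 3 (adjusted p = 0.0307, with a range of 0.0307 to 0.793 over the 22 alternatives). Cenpf, a large kinetochore protein of G2 and mitosis, followed at -0.95 (adjusted p = 0.0246) in pBIC and -0.99 (adjusted p = 0.0205) in pBIC10 against YC, with 18 to 61.1 CPM in pBIC, 32.6 to 42.4 in pBIC10 and 61.7 to 91.6 in YC. The Cenpf call for pBIC against YC did not survive omission of pBIC replicate 2 or 3 or of YC replicate 3 (adjusted p = 0.107, 0.0536 and 0.0615 in that order, with a range of 9.99e-04 to 0.107 over the 22 alternatives). Cenpf was also lost with females alone (0.0712) or the length trend removed (0.0511). The Cenpf call for pBIC10 against YC did not survive omission of pBIC10 replicate 1 or 2 or of YC replicate 3 (adjusted p = 0.0674, 0.0772 and 0.0529 in that order, with a range of 4.07e-04 to 0.0772 over the 22 alternatives). Cenpf was also lost with females alone (0.0708). The NDC80 complex genes Nuf2, Ndc80 and Spc25, which bind microtubules at the kinetochore, were not called by edgeR in any of the 3 comparisons and gave 0.03, -0.38 and -0.48 in pBIC10 against pBIC (adjusted p = 0.95, 0.245 and 0.184). Nuf2 came under the threshold for pBIC10 against YC on omission of pBIC replicate 2 or 3 (adjusted p = 0.0406 and 0.0247 in that order, with a range of 0.011 to 0.211 over the 22 alternatives). Nuf2 did so also with the 2 groups alone (0.011). Nuf2 came under the threshold for pBIC against YC on omission of pBIC replicate 2 (adjusted p = 0.00886, with a range of 0.00886 to 0.211 over the 22 alternatives). Nuf2 did so also with DESeq2 size factors (0.0468), no low-count filter (0.0425), a filter of 1 CPM in 3 libraries (0.0488), DESeq2 (0.0491) or limma-voom (0.0361). Ndc80 came under the threshold for pBIC10 against YC on omission of pBIC replicate 2 (adjusted p = 0.0412, with a range of 0.0206 to 0.243 over the 22 alternatives). Ndc80 did so also with the 2 groups alone (0.0206).

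Of the 5 spindle genes 2 were lower in pBIC10 than in pBIC and 3 were lower than in YC. Hmmr, the hyaluronan-mediated motility receptor, a spindle pole protein that works with Tpx2 and Aurora A, stood at 16.6, 10.8 and 17.1 CPM in pBIC10, 55.9, 66.3 and 28.4 CPM in pBIC and 55.9, 39.6, 49 and 48.7 CPM in YC. No pBIC10 library reached any other, and pBIC replicate 3 was the lowest of the other 7. The fold change was -1.76 ± 0.29 (SE, adjusted p = 6.26e-04) against pBIC and -1.70 ± 0.28 (SE, adjusted p = 2.53e-04) against YC. Tpx2, which activates Aurora A on spindle microtubules, stood at 51.7, 50.4 and 59.8 CPM in pBIC10, 124, 138 and 96.9 CPM in pBIC and 152, 104, 140.4 and 135 CPM in YC. Its pBIC10 libraries lay close together and far below the other 7, with -1.15 ± 0.19 (SE, adjusted p = 5.82e-04) against pBIC, -1.30 ± 0.18 (SE, adjusted p = 7.3e-05) against YC and -0.15 (adjusted p = 0.472) for pBIC against YC. Kif11, the motor that pushes spindle poles apart, was by contrast at 119, 103 and 126 CPM in pBIC10, 165, 183 and 96.9 CPM in pBIC and 158, 93.4, 180.2 and 144 CPM in YC. All groups overlapped, with -0.35 (adjusted p = 0.328) against pBIC and -0.31 (adjusted p = 0.30) against YC. Kif2c, which removes microtubule ends at kinetochores, gave -0.48 (adjusted p = 0.134) against pBIC and was lower than YC at -1.01 (adjusted p = 0.00212). Kif2c came under the threshold against pBIC on omission of pBIC replicate 3 (adjusted p = 0.0403, with a range of 0.0403 to 0.434 over the 22 alternatives). Aspm, a spindle pole protein, was not called by edgeR in any comparison, with -0.25 (adjusted p = 0.506) against pBIC and -0.60 (adjusted p = 0.0562) against YC. Aspm came under the threshold for pBIC10 against YC on omission of pBIC10 replicate 3 or of pBIC replicate 1 or 3 (adjusted p = 0.0336, 0.0128 and 0.038 in that order, with a range of 0.0084 to 0.189 over the 22 alternatives). Aspm did so also with DESeq2 size factors (0.0466), no low-count filter (0.0478), limma-voom (0.0497), the 2 groups alone (0.0084) or the length trend removed (0.0215). Aspm came under the threshold for pBIC against YC on omission of pBIC replicate 1 (adjusted p = 0.00835, with a range of 0.00835 to 0.649 over the 22 alternatives).

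Central spindle and cytokinesis genes fell in 4 of 5 members against pBIC and in 3 of 5 against YC. Prc1, which bundles antiparallel microtubules at the midzone, stood at 32.5, 28.8 and 32.7 CPM in pBIC10, 56.8, 60.2 and 45.1 CPM in pBIC and 69.8, 60.2, 79 and 63.4 CPM in YC. The pBIC10 libraries were nearly level and below all others, with -0.79 ± 0.17 (SE, adjusted p = 0.00434) against pBIC and -1.12 ± 0.17 (SE, adjusted p = 1.27e-04) against YC. Kif23, the kinesin of the centralspindlin complex, stood at 48, 43 and 37.8 CPM in pBIC10, 65.7, 67.8 and 60.6 CPM in pBIC and 136, 118, 184 and 143 CPM in YC. The 3 groups did not overlap, and the larger step was from YC to pBIC, at -1.16 ± 0.18 (SE, adjusted p = 1.37e-04), followed by -0.59 ± 0.18 (SE, adjusted p = 0.0261) from pBIC to pBIC10. The Kif23 call against pBIC did not survive omission of pBIC10 replicate 2 or 3 (adjusted p = 0.0812 and 0.0983 in that order, with a range of 0.00717 to 0.0983 over the 22 alternatives). Kif23 was also lost with females alone (0.071). Ect2, the exchange factor that activates RhoA at the cleavage site, stood at 24.7, 18.2 and 24 CPM in pBIC10, 38.2, 46.7 and 27.6 CPM in pBIC and 38, 24.5, 38.9 and 35.3 CPM in YC. Its pBIC10 libraries were below pBIC but overlapped YC replicate 2, with -0.75 ± 0.24 (SE, adjusted p = 0.0312) against pBIC and -0.62 ± 0.23 (SE, adjusted p = 0.0371) against YC. The Ect2 call against pBIC did not survive omission of pBIC10 replicate 1, 2 or 3 or of pBIC replicate 1 or 2 (adjusted p = 0.056, 0.133, 0.0543, 0.0583 and 0.101 in that order, with a range of 0.0111 to 0.133 over the 22 alternatives). Ect2 was also lost with the 2 groups alone (0.057) or females alone (0.0648). The Ect2 call for pBIC10 against YC did not survive omission of pBIC10 replicate 1, 2 or 3 or of YC replicate 1, 3 or 4 (adjusted p = 0.0567, 0.154, 0.0617, 0.0754, 0.0876 and 0.070 in that order, with a range of 0.0154 to 0.154 over the 22 alternatives). Ect2 was also lost with females alone (0.125) or the length trend removed (0.0551). Kif20a, a midzone kinesin, was called against pBIC at -0.61 (adjusted p = 0.0373) and not against YC at -0.32 (adjusted p = 0.184). The Kif20a call against pBIC did not survive omission of pBIC10 replicate 1, 2 or 3 or of pBIC replicate 1 or 2 or of YC replicate 1 or 3 (adjusted p = 0.14, 0.0855, 0.0714, 0.0823, 0.0551, 0.0501 and 0.0511 in that order, with a range of 0.0201 to 0.14 over the 22 alternatives). Kif20a was also lost with library size alone (0.056), no low-count filter (0.0961), the 2 groups alone (0.0682), sex as covariate (0.0689) or females alone (0.0882). Anln, anillin, which scaffolds the contractile ring, was not called in any comparison and gave 0.07 (adjusted p = 0.867) against pBIC.

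Neither of the 2 chromosome structure members was called between the lymphomas (0 of 2 also at an unadjusted p under 0.05, in DESeq2 and in limma-voom). In each lymphoma 1 of 2 was lower than in YC, where 27.7% of all genes were lower in pBIC and 26.9% in pBIC10. Top2a, the topoisomerase that untangles chromatids, stood at 454, 369 and 490.5 CPM in pBIC10, 523, 494 and 217 CPM in pBIC and 452, 341, 592 and 455 CPM in YC, and was not called in any comparison. It gave 0.09 (adjusted p = 0.851) against pBIC and -0.07 (adjusted p = 0.842) against YC. Mki67, the Ki-67 protein that coats mitotic chromosomes and is the usual proliferation stain, stood at 494, 448 and 502 CPM in pBIC10, 737, 389 and 267 CPM in pBIC and 995, 814, 1407 and 992 CPM in YC. Both lymphomas lay below YC, at -1.18 ± 0.30 (SE, adjusted p = 0.00516) for pBIC and -1.13 ± 0.30 (SE, adjusted p = 0.00687) for pBIC10, while pBIC10 against pBIC gave 0.05 (adjusted p = 0.923) with overlapping libraries. Levels were also scaled per kilobase of annotated exon. That length joins the exons of all annotated transcripts of a gene and can exceed the RNA present, so the scale compares genes only roughly. On it, Top2a and Mki67 had the highest mean levels of the 37 in pBIC10, at 48.5 and 47.8 CPM per kb. Plk1 stood at 8.58 there, against 37 in pBIC and 41.8 in YC.

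**Figure D3:**
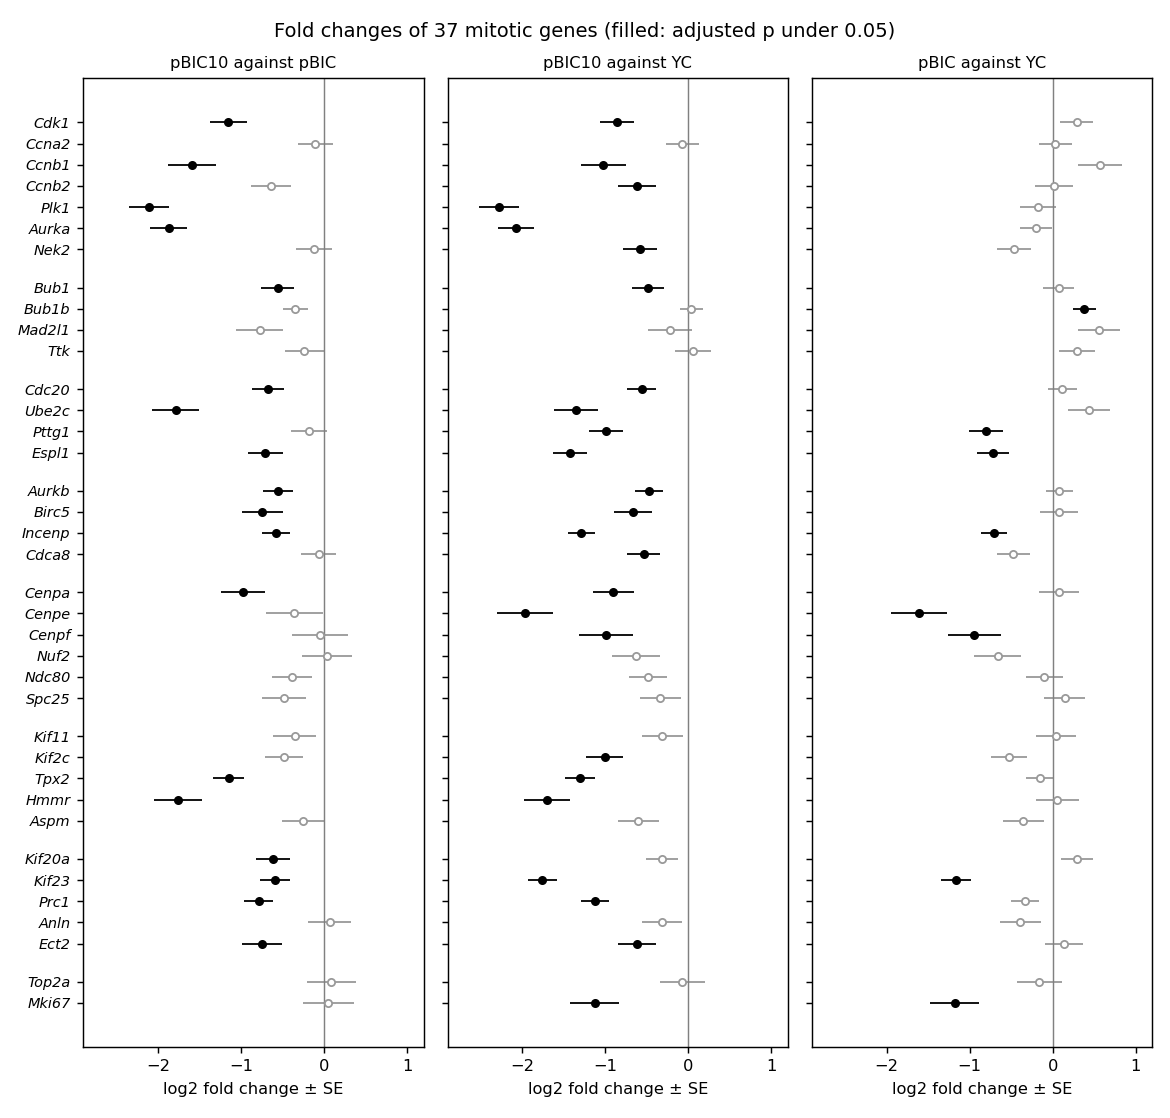
Log2 fold change with its SE (x axis) of the 37 genes (y axis, grouped by role) in pBIC10 against pBIC, pBIC10 against YC and pBIC against YC. Filled points have an adjusted p under 0.05; 18, 25 and 8 genes are filled.

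The 7 members that were called and at least 2 times lower were Plk1, Aurka, Ube2c, Hmmr, Ccnb1, Cdk1 and Tpx2, which between them hold kinases, a cyclin, a ubiquitin-conjugating enzyme and spindle pole proteins. Against YC 13 called members were at least 2 times lower. The share of all genes that were both called and at least 2 times lower was not counted, so these counts only describe the list. Single libraries stood low within each group. Replicate 2 was the lowest pBIC10 library for 31 of 37 members, replicate 2 the lowest YC library for 33 and replicate 3 the lowest pBIC library for 24. The ratio of the highest to the lowest library within a group had a median over the members of 1.32 in pBIC10, 1.46 in YC and 1.65 in pBIC, and exceeded 2 for 2, 1 and 8 members. It was taken over 3 libraries in each lymphoma group and 4 in YC. Neither the lowest library nor this ratio was counted over all genes. A shift of a whole library therefore cannot be told apart from one of these members.

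Between pBIC replicate 1 and the other pBIC libraries, level ratios ran with annotated exon length. Between pBIC replicates 3 and 1, Spearman's rho of the log2 ratio with exon length was -0.54 over the 37 members. Over the 15945 tested genes with a length it was -0.22. Between replicates 2 and 1 the values were -0.49 and -0.39. Between replicates 3 and 2 rho was weaker over the members, at -0.16, and of the other sign over all genes, at 0.18. Among all tested genes with a length, the 3985 longest (from 5.94 kb) had a median log2 ratio of -0.37 between pBIC replicates 2 and 1 and the 3988 shortest (to 1.61 kb) one of 0.48. Between pBIC10 libraries rho over the members was 0.01 to 0.08. These are descriptions across genes that share a library, without a test. The longer members Cenpe, Cenpf, Mki67 and Top2a were those lowest in pBIC replicate 3 relative to replicate 1. Between groups, rho of the fold change with length over the members was 0.39 for pBIC10 over pBIC, -0.41 for pBIC over YC and 0.02 for pBIC10 over YC. With a length trend removed from the counts, 20 members were lower in pBIC10 than in pBIC and 22 lower than in YC. Of all genes, 16.3% and 27.0% were then called lower in these comparisons. In pBIC against YC 6 members were then lower and 3 higher, where 26.2% of all genes were lower and 54.5% called in all. The median of the 37 members there went from -0.10 to 0.02, while that over all genes went from 0.020 to 0.092. The part of length in the single-gene results was not otherwise tested.

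**Figure D4:**
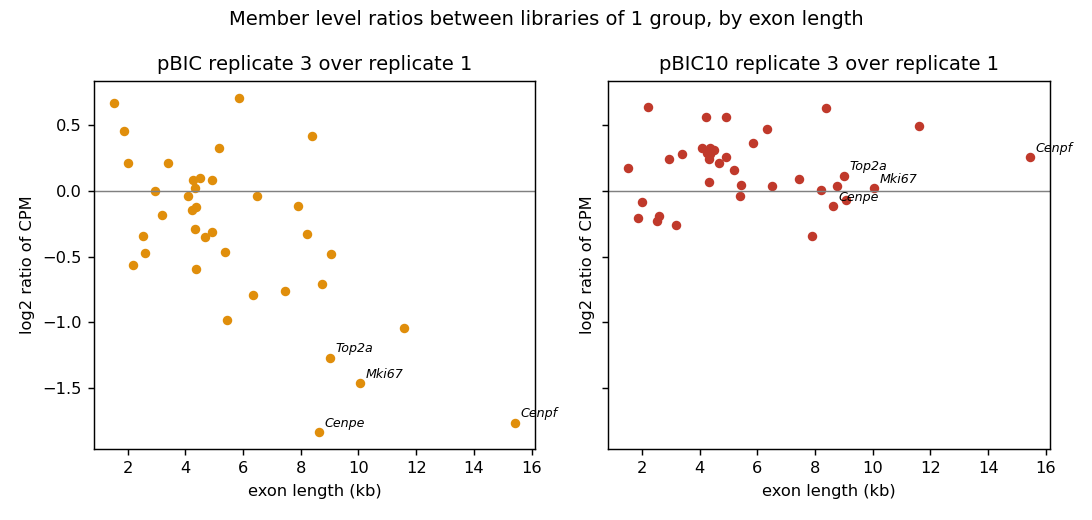
Log2 ratio of CPM between 2 libraries of the same group (y axis) against annotated exon length in kb (x axis) for the 37 genes, replicate 3 over replicate 1, in pBIC (left) and pBIC10 (right). In pBIC the longer genes such as Cenpf, Mki67, Top2a and Cenpe lie below 0, and in pBIC10 no such slope is seen.

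Beyond the 37, lists of other mitotic genes were read in the same fit. Over 8 lists with 149 tested genes, 38 were lower and 22 higher in pBIC10 against pBIC (25.5% lower, against 15.1% of all genes lower and 15.6% higher), with a median of -0.17. Without pBIC10 replicate 2 the 38 became 18, and without pBIC10 replicate 1 they became 22. The share of all genes called lower was 9.76% and 10.6% in these fits. The lists did not move one way. Among 23 transcription factors and MuvB subunits that control mitotic genes, 9 were higher and 1 lower. The E2F repressors E2f7 and E2f8 rose, at 1.89 (adjusted p = 5.8e-05) and 1.2 (adjusted p = 3.63e-04), as did the S phase activators E2f1 and E2f2, at 1.14 (adjusted p = 8.75e-04) and 1.74 (adjusted p = 9.64e-05). Foxm1, the forkhead factor of G2 transcription, stood at 58.2 to 75.9 CPM in pBIC10, 54.8 to 62.4 in pBIC and 155 to 181 in YC. It was not called between the lymphomas, at 0.14 (adjusted p = 0.533), and fell in both against YC, at -1.49 (adjusted p = 8.86e-06) for pBIC and -1.35 (adjusted p = 1.63e-05) for pBIC10. Mybl2, which encodes B-MYB, behaved likewise, at -0.03 (adjusted p = 0.925) between the lymphomas, -0.62 (adjusted p = 0.00475) for pBIC and -0.65 (adjusted p = 0.00377) for pBIC10 against YC. E2f4 and Rbl1, parts of the repressing form of the complex, gave -0.30 (adjusted p = 0.204) and -0.01 (adjusted p = 0.979) in pBIC10 against pBIC.

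Among 14 tested regulators of Cdk1, 5 were lower and 1 higher in pBIC10 against pBIC. The 1 called higher was Cdkn1a, the p21 inhibitor, at 14.3, 14.2 and 5.18 CPM in pBIC10, 0.536, 3.05 and 0.75 CPM in pBIC and 3.86, 4.91, 5.66 and 8.91 CPM in YC. Both lymphomas carry floxed p53, the factor best known for driving Cdkn1a, and the level in pBIC10 replicate 3 was under that of the other 2. No pBIC10 library overlapped pBIC, and the fold change was 2.96 ± 0.63 (SE, adjusted p = 0.00365) against pBIC. Cdkn1a was also lower in pBIC than in YC, at -2.01 (adjusted p = 0.0124), and pBIC10 replicate 3 lay within the YC range. Gtse1, a microtubule-associated protein that restrains p53 in G2, fell by 1.09 on the log2 scale (adjusted p = 3.55e-04). Wee1, the kinase that holds Cdk1 inactive, gave 0.17 (adjusted p = 0.583) and was not called. Among 17 genes of the anaphase-promoting complex and its activators 4 were lower and 2 higher, a share called close to the 30.7% of all genes. Fzr1, the CDH1 activator that keeps the complex active in G1, fell by 0.85 on the log2 scale (adjusted p = 0.00171).

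The lists of chromosome structure gave other counts. None of 8 condensin genes was called in either direction in pBIC10 against pBIC (higher in 1 and lower in 0 at an unadjusted p under 0.05, and in 1 and 0 by limma-voom and 0 and 0 by DESeq2). Of 13 cohesin genes 5 were higher and 1 lower, with a median of 0.38. Rad21, the cohesin subunit cut by separase, stood at 1004, 962 and 968 CPM in pBIC10, 195, 206 and 212 CPM in pBIC and 250.3, 171, 268 and 227 CPM in YC, far above both other groups in pBIC10, at 2.26 ± 0.18 (SE, adjusted p = 2.66e-06) against pBIC. Nipbl, the cohesin loader, gave 1.55 (adjusted p = 4.47e-04). Of 8 other mitotic kinesins 4 were lower and 0 higher (0 also at an unadjusted p under 0.05, in DESeq2 and in limma-voom), with a median of -0.65. Of 35 other kinetochore genes 8 were lower, among them Spdl1 at -1.56 (adjusted p = 2.5e-04), Cenpm at -1.25 (adjusted p = 0.00272) and Cenpo at -0.99 (adjusted p = 0.00188), and 1, Cenpt, was higher at 0.79 (adjusted p = 0.0143). The Cenpt call against pBIC did not survive omission of pBIC10 replicate 2 (adjusted p = 0.0721, with a range of 0.00538 to 0.0721 over the 22 alternatives). Of 32 other G2/M genes 16 were lower and 4 higher, with a median of -0.64. Depdc1b, Arhgap19 and Ckap2l led the lower side at -1.86, -1.42 and -1.25 (adjusted p = 0.00166, 6.05e-04 and 0.00193). Pimreg, a mitotic regulator of the metaphase-to-anaphase step, went the other way, at 3.54 to 3.89 CPM in pBIC10 and 0.0565 to 0.589 CPM in pBIC, with 3.32 (adjusted p = 3.4e-04). Its lowest pBIC level is near 0. None of the 32 genes, Pimreg included, was higher in pBIC10 against YC (0 by edgeR, at an unadjusted p under 0.05, in DESeq2 and in limma-voom), where 24.8% of all genes were higher.

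DNA replication genes act in the phase before. Of 47 S phase genes 11 were higher and 2 lower in pBIC10 against pBIC, with a median of 0.21, where 15.6% of all genes were higher. In pBIC against YC, 4 were higher and 17 lower (36.2%), where 26.4% of all genes were higher and 27.7% lower. In pBIC10 against YC, 7 were higher and 11 lower (23.4%), where 24.8% of all genes were higher and 26.9% lower. The medians were -0.31 and -0.12 in that order. Clspn, the adaptor of the replication checkpoint kinase, and Mcm6, a subunit of the replicative helicase, rose in pBIC10 against pBIC. Their values were 1.24 (adjusted p = 3.07e-04) and 0.99 (adjusted p = 0.0056), and Fen1, the flap nuclease, was lower there at -0.89 (adjusted p = 0.0155). The Fen1 call against pBIC did not survive omission of pBIC10 replicate 2 or of pBIC replicate 2 (adjusted p = 0.0736 and 0.0589 in that order, with a range of 9.88e-04 to 0.0736 over the 22 alternatives). Per library, the mean log2 CPM of the 37 mitotic genes minus that of the 47 replication genes was -0.84, -0.98 and -1.04 in pBIC10, 0.13, -0.20 and -0.23 in pBIC and -0.14, -0.28, -0.24 and -0.15 in YC. The pBIC10 libraries lay apart from all 7 others, and pBIC and YC overlapped. The group means were -0.95 ± 0.10 (SD, n = 3), -0.10 ± 0.20 (SD, n = 3) and -0.20 ± 0.07 (SD, n = 4). No test was made on this difference, since both lists were chosen with earlier results known. Summed over the 37 genes the level was 2227 to 2802 CPM in pBIC10, 2596 to 3830 in pBIC and 3478 to 5237 in YC. The first 2 ranges overlap, and Mki67 and Top2a are the members with the highest CPM in each sum. The replication genes summed to 5122 to 6869 CPM in pBIC10, 3886 to 5759 in pBIC and 4951 to 7092 in YC, with overlap throughout.

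**Figure D5:**
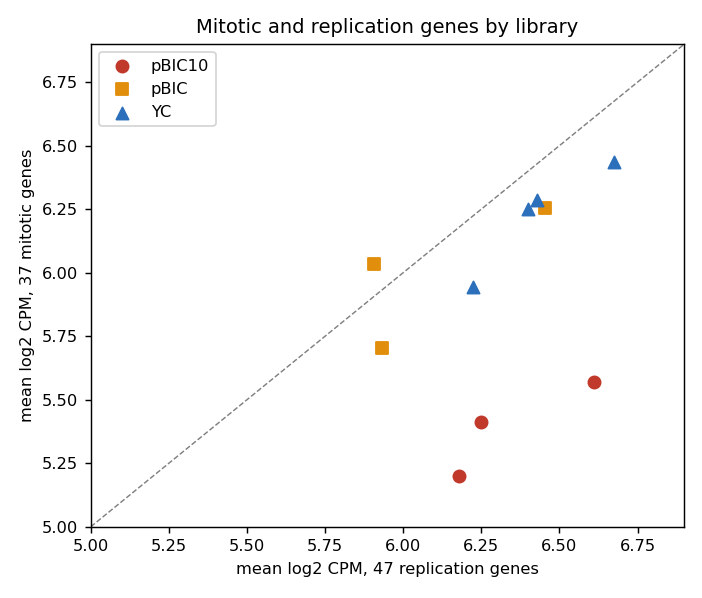
Mean log2 CPM of the 37 mitotic genes (y axis) against that of 47 replication genes (x axis), 1 point per library, with the line of equal values dashed. The 3 pBIC10 libraries lie 0.84 to 1.04 below the line, whereas pBIC and YC libraries lie between 0.28 below and 0.13 above it.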

How the data were processed

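PolyA RNA of FACS-sorted splenic B cells was sequenced as single 50-base reads. The deposited table holds raw counts of reads per gene, made by the authors with featureCounts on GRCm39 after FastQC, per the submitters' processing notes; the aligner and annotation, the strandedness used in counting and all versions were not given in the sources used here, so reads of overlapping genes on opposite strands cannot be told apart. Replicates are numbered in accession order.

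From the counts, edgeR 4.0.16 (R 4.3.3) was run with TMM factors, filterByExpr and robust quasi-likelihood fits over all 10 libraries with group as the single factor. Of 46316 genes 17718 were tested, and genes with a Benjamini-Hochberg adjusted p under 0.05 were called. CPM values are TMM-scaled, log2 values used a prior count of 2, and a SE is the log2 fold change over the square root of F. limma 3.58.1 (voom) and DESeq2 1.42.0 were alternatives. The fit was also run on simulated counts with few changed genes. Such counts cannot check the fit where 30.7 to 54.1% of all genes are called. Exon lengths came from a GRCm38 annotation and promoters from RefSeq GRCm38.p6 by symbol; no coordinate was converted between builds. Other alternatives were DESeq2 size factors, library size alone, no filter, a filter of 1 CPM in 3 libraries, 2 groups only, sex as covariate, omission of the antigen receptor genes, an adjusted p under 0.01, each library left out, females only and a length trend removed. The last 2 were chosen after seeing the data. The members, the role groups and the gene and marker lists were chosen with earlier results of these data known. Full statistics went, in each role group, to up to 3 called members with the smallest adjusted p in pBIC10 against pBIC and to a member called against the direction of its group. From each other list up to 3 called genes a direction could be named, with Foxm1, Mybl2, E2f1, E2f4, Rbl1, Cdkn1a, Fzr1 and Wee1; Ccnb1-ps, Cdk1, Ccna2, Top2a, Mki67 and the other members' values were added as description.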

Additional observations from a re-analysis of the deposited data

Results flagged for a closer look

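In the 4 YC libraries, the level of Pttg1, securin, was low in replicate 2, at 23.4, 17.4, 24.3 and 24 CPM in replicates 1 to 4. The gap from that library to its nearest neighbour was 0.879 of the group's whole range, above Dixon's 95% critical value for 4 samples. The level of Cenpe, the kinetochore kinesin, was high in YC replicate 3, at 134, 134, 193 and 141 CPM, with a gap of 0.886 of the range. The rule was applied to the YC values of all 37 members, and chance alone passes about 1 in 20 groups. Both genes were called lower in pBIC and in pBIC10 than in YC whether or not either library was left out.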

How the results depend on the processing

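In pBIC10 against pBIC, 8 of the 18 calls (Cdk1, Ccnb1, Plk1, Aurka, Ube2c, Tpx2, Hmmr and Prc1) held in all 22 alternatives, 10 were lost in at least 1, and 5 other members were called in at least 1. The count of 18 lower was 8 at an adjusted p under 0.01 and ran from 8 (without pBIC10 replicate 2) to 20 with single libraries left out. In pBIC10 against YC, 16 of 25 calls held in all alternatives, and 3 other members were called in at least 1. The count was 16 at an adjusted p under 0.01, where the share of all genes called lower went from 26.9% to 19.8%. It was 16 to 27 with single libraries left out. In pBIC against YC, 6 of 8 calls held throughout, and 8 other members were called in at least 1 alternative. Of these Nek2, Cdca8, Nuf2, Kif2c and Aspm gained a call as lower, and Ccnb1, Mad2l1 and Ube2c as higher. Cdca8, Nuf2 and Kif2c were called lower by both DESeq2 and limma-voom. In that comparison the 7 lower became 11 with DESeq2 size factors, where the share of all genes called lower went from 27.7% to 28.9%. The 1 higher became 0 with DESeq2 size factors, in DESeq2 and at an adjusted p under 0.01. It became 2 without a low-count filter and in females only, 3 with sex as covariate and with a length trend removed, and 0 to 2 with single libraries left out. Of the other mitotic lists in pBIC10 against pBIC, the 38 lower became 19 and the 22 higher 14 at an adjusted p under 0.01, and the lower count ran from 18 to 39 with single libraries left out. In pBIC against YC, the 21 higher became 13 at an adjusted p under 0.01 and 34 with a length trend removed. The cause was not tested, except that a stricter threshold allows fewer calls. Summed levels and the difference between mitotic and replication genes moved by less than 1 SD under the alternatives that keep all libraries. With a library left out, a move under 1 SD is fixed by arithmetic and says nothing of stability. Over 5148 single-gene values, 4833 stayed on their side of the threshold, 244 lost and 71 gained a call, none reversed while called, and 122 uncalled values changed sign. No paired analysis was possible because the labels give the groups no shared replicate numbers. Depth did not limit detection of the members, whose lowest count was 184 reads.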
